A study of Homo sapiens with 24 samples.

Results

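The transcripts of 10 receptor genes through which T cells are activated or held in check were followed after knockdown of PRKCQ, the gene of protein kinase C theta, in lines of cutaneous T cell lymphoma. The genes were CTLA4, PDCD1, ICOS, LAG3, HAVCR2, TIGIT, BTLA, CD96, CD226 and CD69. They were taken by symbol from the 2 comparison tables that the authors deposited, 1 for cells given TPA and 1 for cells given DMSO. The TPA table lists all 10 among 58780 genes. The DMSO table lists 6 of them among 13025 genes, and PDCD1, LAG3, HAVCR2 and BTLA are absent from it. None of them passed at an adjusted p under 0.05 in either comparison of shPRKCQ with NTC cells, and BTLA has no adjusted p. Their log2 fold changes lay between -0.55 and 0.59 in TPA and between -0.24 and 0.49 in DMSO in the authors' deposited tables, with 95% intervals that all include 0.

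The 24 libraries of poly(A)-selected RNA came from MyLa, a line labelled as mycosis fungoides, and HuT 78, a line labelled as Sézary syndrome, with 3 libraries in each of 8 groups. In TPA the groups were MyLa shPRKCQ, HuT 78 shPRKCQ, MyLa NTC and HuT 78 NTC, given 10 ng/ml of this phorbol ester for 24 h, and the same 4 cell populations were given DMSO, its vehicle, for 24 h. The shPRKCQ cells carry a hairpin against PRKCQ and had doxycycline at 1 µg/ml for a minimum of 72 h beforehand. NTC cells carry a non-targeting control; the labels do not say whether they too received doxycycline, and if not, the drug's effects cannot be told apart from those of the hairpin. Each table sets 6 shPRKCQ libraries against 6 NTC libraries, with both lines together, so a change in 1 line that is absent or opposite in the other cannot be seen. No value per library was used here, so the depth, the level of each receptor and the spread between libraries are unknown, and fewer cells expressing a gene cannot be told apart from less RNA per cell. PRKCQ itself was at 23.7% of the NTC level in TPA and 23.1% in DMSO, computed from the authors' deposited tables (adjusted p = 1.67e-15 and 5.61e-14), and a negative log2 fold change is read as lower in shPRKCQ cells for that reason, since the headers give no direction.

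T cell activation needs a signal from the antigen receptor and a second one from costimulatory receptors, and it is limited by inhibitory receptors, called checkpoints, that appear on activated cells. Protein kinase C theta acts below the antigen receptor and CD28 and feeds the NF-kappaB, AP-1 and NFAT pathways, which act on many genes of activated T cells. TPA activates protein kinase C enzymes directly, bypassing the antigen receptor, and surface CD69 is a standard readout of such stimulation. Blocking antibodies to the checkpoint receptors CTLA4 and PD-1 are used in cancer treatment, and PD-1 and ICOS are known from malignant T cells of mycosis fungoides and Sézary syndrome.

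Because AP-1, NFAT and NF-kappaB lie downstream of the kinase, the 250 bases before the RefSeq transcription start (build GRCh38.p14) were searched on both strands for the AP-1 motif TGANTCA, the NFAT core TGGAAA and the NF-kappaB motif. RefSeq promoters were matched for 7 of the 10 genes, CTLA4, ICOS, PDCD1, BTLA, TIGIT, CD96 and CD226, with 8 start sites in all. The 4 with a match are shown because they are where these letters occur; capitals mark the match, each sequence is on the strand of its gene, and the last base is the one before the start.
CTLA4, chr2:203867521-203867770, plus strand: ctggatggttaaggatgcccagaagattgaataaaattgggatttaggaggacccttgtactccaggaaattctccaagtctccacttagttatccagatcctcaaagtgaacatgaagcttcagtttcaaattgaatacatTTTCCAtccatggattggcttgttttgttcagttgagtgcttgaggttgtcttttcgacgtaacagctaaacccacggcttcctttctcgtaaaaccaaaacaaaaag
ICOS, chr2:203936513-203936762, plus strand: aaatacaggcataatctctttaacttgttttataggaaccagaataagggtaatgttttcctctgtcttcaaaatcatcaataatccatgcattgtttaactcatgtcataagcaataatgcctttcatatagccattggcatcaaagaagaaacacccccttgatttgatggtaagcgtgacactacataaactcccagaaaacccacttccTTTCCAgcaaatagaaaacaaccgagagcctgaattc
PDCD1, chr2:241858895-241859144, minus strand: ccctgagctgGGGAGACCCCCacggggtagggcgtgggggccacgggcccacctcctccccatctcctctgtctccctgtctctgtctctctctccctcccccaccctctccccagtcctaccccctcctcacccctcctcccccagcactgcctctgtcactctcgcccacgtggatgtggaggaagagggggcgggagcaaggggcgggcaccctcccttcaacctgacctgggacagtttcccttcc
CD226, chr18:69956800-69957049, minus strand: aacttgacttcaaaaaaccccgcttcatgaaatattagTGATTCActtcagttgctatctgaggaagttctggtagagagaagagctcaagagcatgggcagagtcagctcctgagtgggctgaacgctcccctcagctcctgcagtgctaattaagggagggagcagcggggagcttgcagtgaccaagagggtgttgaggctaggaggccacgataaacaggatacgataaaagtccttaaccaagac

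The CTLA4 and ICOS windows hold the NFAT core on the opposite strand, read above as TTTCCA, 103 to 108 and 32 to 37 bases before the start. Overlapping NF-kappaB matches lie 230 to 240 bases before the PDCD1 start. The AP-1 match of CD226 lies 206 to 212 bases before the farther upstream of its 2 start sites. Over all 35116 RefSeq promoter windows of this length, 18.0% hold the NFAT core, 9.96% the NF-kappaB motif and 6.57% the AP-1 motif. Among the 8 windows of these receptors, 2 hold the NFAT core, 1 the NF-kappaB motif and 1 the AP-1 motif. These matches are letters in a window and not measured binding. None of the genes that hold them passed where it had a value, as given next, and PDCD1 has no DMSO value.

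The CD28 family holds the costimulator ICOS and the inhibitors CTLA4, PD-1 and, by structure and function close to it, BTLA. CTLA4 (ENSG00000163599.15, chromosome 2, 203867771 to 203873965, plus strand, GRCh38), which takes CD80 and CD86 away from CD28, had a log2 fold change of 0.15 in TPA and -0.029 in DMSO in the authors' deposited tables (unadjusted p = 0.552 and 0.921). Computed from the authors' deposited tables, CTLA4 was at 111% of the NTC level in TPA, with a 95% interval of 78.8% to 156%, and at 98.0% in DMSO, with an interval of 66.1% to 145%. ICOS (ENSG00000163600.12, chromosome 2, 203936748 to 203961577, plus strand), the costimulator that recruits phosphoinositide 3-kinase, was the receptor nearest to no change in TPA, at 0.042 in TPA and 0.041 in DMSO in the authors' deposited tables (unadjusted p = 0.861 and 0.872). For ICOS the interval computed from the authors' deposited tables ran from 74.4% to 142% of the NTC level in TPA and from 72.6% to 146% in DMSO.

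PDCD1 (ENSG00000188389.10, chromosome 2, 241849881 to 241858908, minus strand) encodes PD-1, which recruits the phosphatase SHP-2 after binding PD-L1 or PD-L2. Its log2 fold change of 0.32 in TPA in the authors' deposited table, or 125% of the NTC level, had the widest interval of the 10, from 57.5% to 270.0% (unadjusted p = 0.578). BTLA (ENSG00000186265.9, chromosome 3, 112463968 to 112499561, minus strand), the inhibitory receptor for the TNF receptor family member HVEM, had a value of -0.51 in TPA in the authors' deposited table, or 70.3% of the NTC level with an interval of 36.9% to 134% (unadjusted p = 0.283). BTLA is the only one of the 10 without an adjusted p in the TPA table.

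TIGIT, CD96 and CD226 share the ligand PVR, and TIGIT and CD96 act mainly as inhibitors where CD226 costimulates. TIGIT (ENSG00000181847.11, chromosome 3, 114276913 to 114310288, plus strand) had the smallest p of the 6 receptors in DMSO, and the authors' deposited tables have it at 0.17 in TPA and 0.49 in DMSO (unadjusted p = 0.511 and 0.0692). That is 113% of the NTC level in TPA, with an interval of 79.1% to 160.3%, and 140.1% in DMSO, with an interval of 97.4% to 202%, computed from the authors' deposited tables. CD96 (ENSG00000153283.12, chromosome 3, 111292719 to 111665750, plus strand) was at 0.29 in TPA and -0.24 in DMSO in the authors' deposited tables (unadjusted p = 0.351 and 0.497). CD226 (ENSG00000150637.8, chromosome 18, 69831158 to 69961803, minus strand) was at -0.47 in TPA and 0.10 in DMSO in the authors' deposited tables (unadjusted p = 0.147 and 0.801). CD96 and CD226 thus had opposite signs to each other in both treatments, but each interval includes 0: on the log2 scale, computed from the authors' deposited tables, they were -0.32 to 0.90 in TPA and -0.92 to 0.45 in DMSO for CD96, and -1.11 to 0.16 in TPA and -0.69 to 0.89 in DMSO for CD226.

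LAG3 and HAVCR2, the remaining checkpoints, had the lowest and the highest log2 fold change of the 10 in TPA. LAG3 (ENSG00000089692.8, chromosome 12, 6772512 to 6778455, plus strand), a relative of CD4 that binds MHC class II, was at -0.55 in the authors' deposited table, or 68.3% of the NTC level with an interval of 39.3% to 119% (unadjusted p = 0.176). HAVCR2 (ENSG00000135077.8, chromosome 5, 157085832 to 157142869, minus strand), which encodes TIM-3, a receptor of galectin-9 and CEACAM1, was at 0.59 in the authors' deposited table, or 151% of the NTC level with an interval of 95.3% to 238% (unadjusted p = 0.0797). Of the 19417 genes with an adjusted p in TPA, 4.01% had an absolute log2 fold change at least as large as that of HAVCR2 and 6.05% a p as small. TIGIT in DMSO lay further out by both measures, at 2.85% and 3.99% of the genes with an adjusted p in DMSO.

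CD69 (ENSG00000110848.8, chromosome 12, 9752486 to 9760901, minus strand), the C-type lectin that appears early in activation and holds T cells in tissue by lowering the sphingosine-1-phosphate receptor S1PR1, was positive in both treatments. The authors' deposited tables have it at 0.30 in TPA and 0.39 in DMSO (unadjusted p = 0.224 and 0.195). Computed from the authors' deposited tables, CD69 was at 123% of the NTC level in TPA, with an interval of 88.0% to 172%, and at 131% in DMSO, with an interval of 87.2% to 196%.

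**Figure D1:**
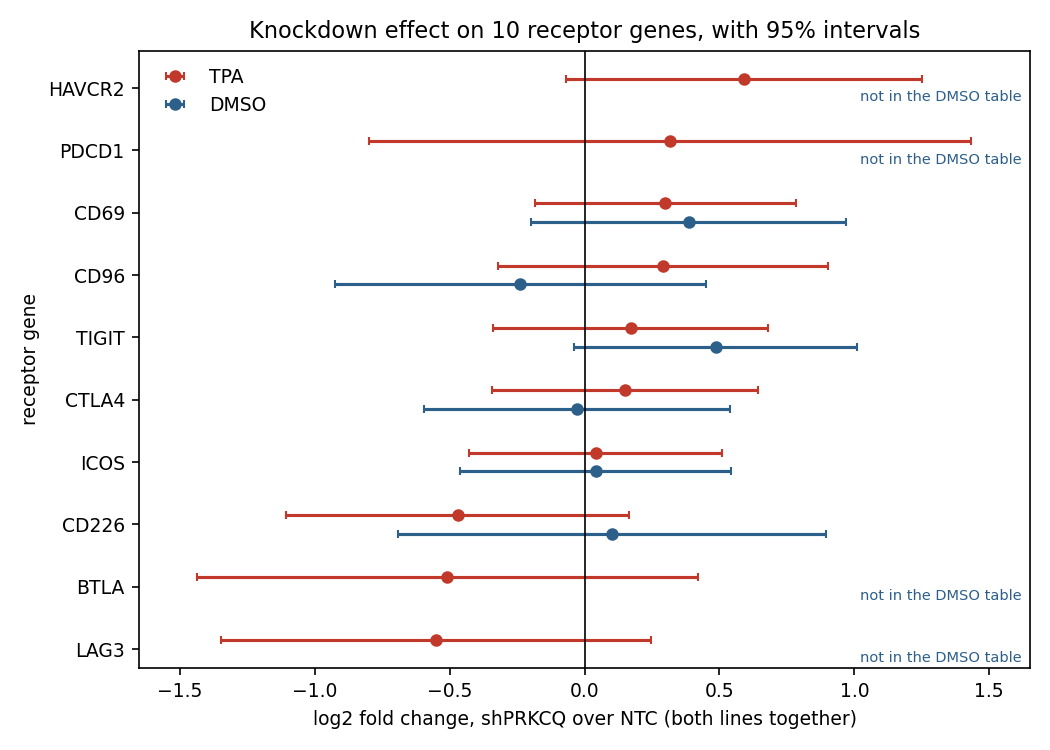
Log2 fold change of shPRKCQ over NTC libraries (x axis) for each of the 10 receptor genes (y axis) in TPA (red) and DMSO (blue), from the authors' deposited tables; bars are 95% intervals implied by the authors' p-values. All 16 intervals include 0, and 4 genes have no DMSO value.

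Counted together, 0 of the 9 receptors with an adjusted p in TPA and 0 of the 6 in DMSO passed in the authors' deposited tables, with 0 in either treatment at an unadjusted p under 0.05. Each receptor's adjusted p was 0.999982 in TPA and 0.999934 in DMSO. Over all genes the share called was 0.113% in TPA and 0.108% in DMSO, and the share at an unadjusted p under 0.05 was 3.99% of genes with an adjusted p in TPA and 3.04% in DMSO. At such shares a set of 10 genes without a call does not stand apart from the background. Among the alternatives run, HAVCR2 passed in TPA after p-values were rescaled by the spread of z over every gene with a p (adjusted p = 0.0136), and not when that spread was taken over genes with an adjusted p (adjusted p = 0.609). The median log2 fold change of the receptors was 0.16 in TPA, with 7 of 10 positive, and 0.072 in DMSO, with 4 of 6 positive, computed from the authors' deposited tables. Over all genes with an adjusted p in the same tables the median was 0.011 in TPA, with 53.0% positive, and 0.0075 in DMSO, with 52.3% positive. The 6 receptors that both tables hold also had a median of 0.16 in TPA, with 5 positive, where the genes of both tables had 50.7% positive.

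How large a change could have been called was worked out from the error of each gene. The implied standard error, which is the log2 fold change divided by the z-value of its p, had a median of 0.32 for the receptors in TPA and 0.29 in DMSO, against 0.22 for all genes with an adjusted p in TPA and 0.17 in DMSO. The largest p among called genes was 5.01e-05 in TPA and 5.20e-05 in DMSO in the authors' deposited tables. At that p, ICOS, the receptor with the smallest error in both treatments, would have needed 196% or 51.0% of the NTC level in TPA and 205% or 48.7% in DMSO. PDCD1 would have needed 496% or 20.2% in TPA, and HAVCR2 258% or 38.8%. Changes of the size seen here were therefore not detectable over all genes. The intervals, not the missing calls, give the range of differences between shPRKCQ and NTC cells that the deposited p-values allow. They hold only as far as the implied errors do. The robust SD of z over genes with an adjusted p was 0.840 in TPA and 0.753 in DMSO. Both are narrower than the standard normal that the intervals assume, so the intervals may be too wide. The reason was not tested.

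**Figure D2:**
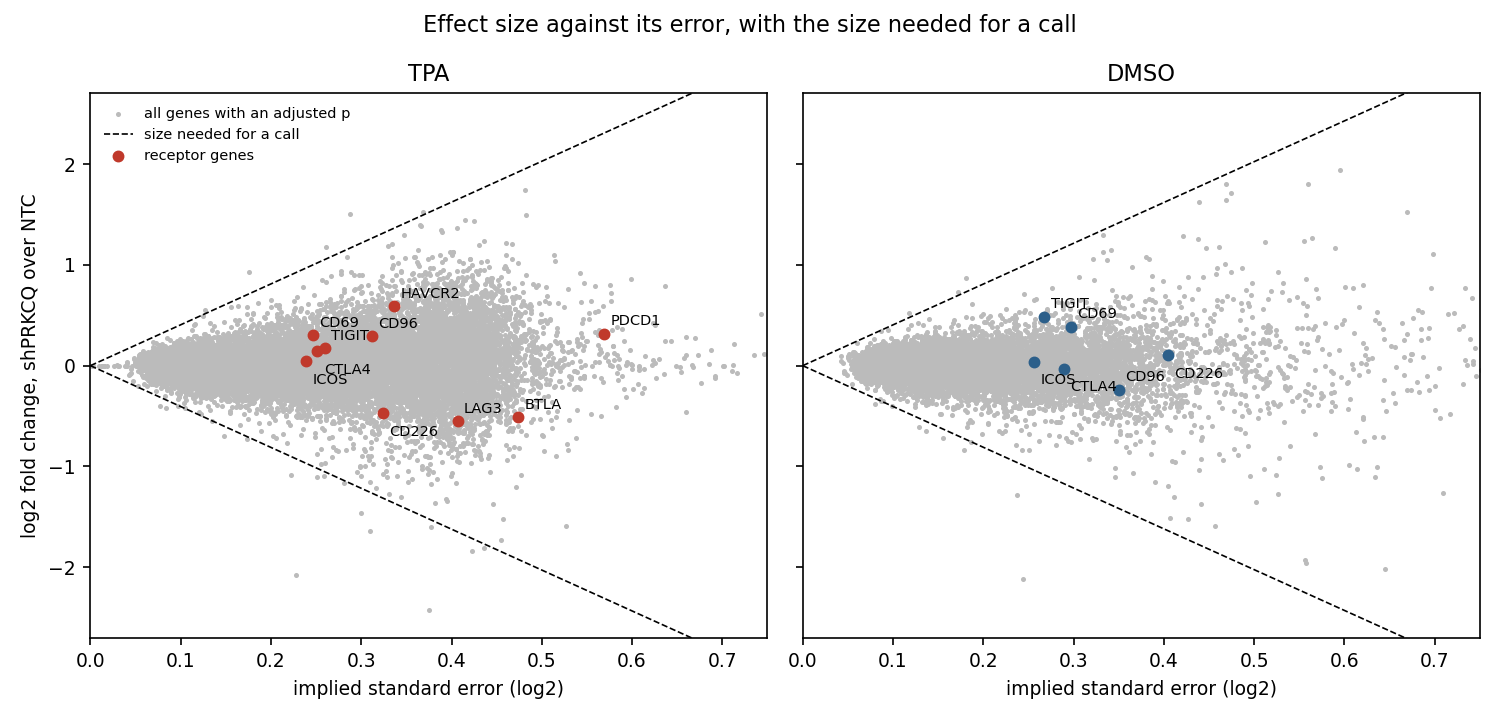
Log2 fold change of shPRKCQ over NTC (y axis) against its implied standard error on the log2 scale (x axis) for genes with an adjusted p (grey) and the receptor genes (coloured), in TPA (left) and DMSO (right), from the authors' deposited tables; dashed lines mark the size needed for a call. Every receptor lies between the lines, and PDCD1 has the largest error, at 0.57; genes beyond the axes are not drawn.

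Whether the knockdown acted differently on a receptor in TPA than in DMSO was tested for the 6 genes of both tables, as part of a test over 13007 genes that takes the tables as independent. None of the 6 passed (adjusted p = 0.999958 for each), with 0 at an unadjusted p under 0.05. Over all genes 0% were called and 0.438% had an unadjusted p under 0.05. The largest differences of log2 fold change, TPA minus DMSO, were those of CD226 at -0.57 with an interval of -1.59 to 0.44 and of CD96 at 0.53 with an interval of -0.39 to 1.45 (unadjusted p = 0.269 and 0.260). TIGIT differed by -0.32, with an interval of -1.05 to 0.42, and CTLA4 by 0.18, with an interval of -0.57 to 0.93. CD69 differed by -0.085, with an interval of -0.84 to 0.67, and ICOS by 0.00056, with an interval of -0.69 to 0.69. Whether the fold changes are on 1 scale across the tables is not known. In TPA, 2910 genes share the value 0.00054, as shrunken estimates can, while no more than 2 share a value in DMSO. That contrast cannot decide the question, because all 13007 genes with a p in DMSO have an adjusted p in TPA. Over those 13007 genes the log2 fold changes spanned -2.08 to 1.39 in TPA and -2.57 to 4.20 in DMSO. Their median implied standard errors were 0.167 and 0.172. Whether the values of 1 table were shrunken more was not tested, so the differences above may compare unlike scales. ATP6V0CP2, a pseudogene that overlaps CD96, has the shared value and no adjusted p in TPA, and it has no DMSO value. The test compares knockdown effects, and how TPA itself changed a receptor against DMSO is not analysed here.

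Several of the receptor genes sit near each other or near related genes, and their neighbours gave no call either. CTLA4 and ICOS lie 62.8 kb apart on chromosome 2 beside CD28, the costimulator that shares ligands with CTLA4. CD28 was at 0.17 in TPA and -0.67 in DMSO in the authors' deposited tables, without a p in either, so the error of these values is unknown. Fusions that join CTLA4 to CD28 have been described in Sézary syndrome, and values per gene cannot show them. CD96, BTLA and TIGIT lie on chromosome 3 with gaps of 798 kb between CD96 and BTLA and 1777 kb between BTLA and TIGIT, and the authors' deposited table has them at 0.29, -0.51 and 0.17 in TPA. NECTIN3, an adhesion molecule of the nectin family, lies 17.2 kb before CD96 and was at -0.18 in TPA and -0.038 in DMSO in the authors' deposited tables. CD4 begins 8.40 kb after LAG3 and had a value of 0.20 in TPA in the authors' deposited table (unadjusted p = 0.483). MED7, a Mediator subunit, overlaps HAVCR2 on the same strand, so reads of the shared part could be split between them; MED7 was at 0.11 in TPA and 0.049 in DMSO in the authors' deposited tables.

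The ligands of these receptors were also measured, since T cell lines can carry both sides of a pair. Of 15 ligand genes, the authors' deposited tables have a p for 15 in TPA, 7 positive with a median of -0.020, and for 12 in DMSO, 8 positive with a median of 0.049; 0 passed in either treatment. CD274, which encodes PD-L1, was the single ligand with an unadjusted p under 0.05, at -0.12 in TPA and 0.84 in DMSO in the authors' deposited tables (unadjusted p = 0.658 and 0.0358). The knockdown effect on CD274 differed between TPA and DMSO at an unadjusted p of 0.0479, which did not pass over all genes (adjusted p = 0.999958). PDCD1LG2, which encodes PD-L2, had a value of -0.32 in TPA in the authors' deposited table (unadjusted p = 0.444). CD86 was at -0.39 in TPA and 0.036 in DMSO in the authors' deposited tables (unadjusted p = 0.09995 and 0.885), and CD80, the other ligand of CTLA4, at -0.25 in TPA (unadjusted p = 0.243). ICOSLG, the ligand of ICOS, was at 0.039 in TPA and 0.27 in DMSO in the authors' deposited tables (unadjusted p = 0.886 and 0.361).

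PVR, the shared ligand of TIGIT, CD96 and CD226, was close to no change, at -0.035 in TPA and -0.020 in DMSO in the authors' deposited tables (unadjusted p = 0.838 and 0.909). NECTIN2, a further ligand of TIGIT and CD226, was at 0.10 in TPA and 0.21 in DMSO in the authors' deposited tables. TNFRSF14, which encodes HVEM, was at 0.13 in TPA and -0.061 in DMSO in the authors' deposited tables. Of the ligands of TIM-3, LGALS9, which encodes galectin-9, was at 0.28 in TPA and 0.062 in DMSO in the authors' deposited tables. CEACAM1 was at 0.43 in TPA and 0.65 in DMSO, and HMGB1 at -0.18 in TPA and 0.080 in DMSO, in the same tables. FGL1, a ligand of LAG3, had a value of -0.020 in TPA in the authors' deposited table, with no adjusted p.

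Related receptors outside the 10 reached higher but not lower values in TPA, at -0.23 to 1.39 against -0.55 to 0.59 for the 10. In DMSO they spanned -1.44 to 0.75, against -0.24 to 0.49 for the 6 receptors with a value. Of 23 related receptors, the authors' deposited tables have a p for 22 in TPA, 12 positive with a median of 0.016, and for 12 in DMSO, 5 positive with a median of -0.080. In either treatment 0 passed, with 3 at an unadjusted p under 0.05 in TPA and 1 in DMSO. The share at an unadjusted p under 0.05 over all genes with an adjusted p was 3.99% in TPA and 3.04% in DMSO. The widest values in DMSO were negative: CD38, an activation marker and NAD-consuming enzyme, was at 0.60 in TPA and -1.44 in DMSO in the authors' deposited tables (unadjusted p = 0.0857 and 0.280), and CRTAM, a receptor of activated cytotoxic cells, at 0.33 in TPA and -0.80 in DMSO (unadjusted p = 0.238 and 0.407). SLAMF7, a SLAM family receptor, was at 1.39 in TPA and 0.75 in DMSO in the authors' deposited tables (adjusted p = 0.0846 and 0.999934). Per the authors' deposited table, CD6 and CD5, scavenger receptor family members that tune antigen receptor signalling, were at 1.02 and 0.56 in TPA (unadjusted p = 0.00272 and 0.0167), and neither is in the DMSO table. KLRG1, an inhibitory lectin, was at 0.13 in TPA and 0.44 in DMSO in the authors' deposited tables (unadjusted p = 0.504 and 0.0295).

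Signalling and trafficking partners of the receptors, such as the phosphatases PTPN6 and PTPN11 and the CTLA4 recycling factor LRBA, had medians of -0.029 in TPA over 22 genes and -0.020 in DMSO over 21, computed from the authors' deposited tables, with 0 called and 0 at an unadjusted p under 0.05. PTPN11, which encodes SHP-2, was at -0.10 in TPA and -0.053 in DMSO in the authors' deposited tables. S1PR1, the receptor that CD69 lowers at the cell surface, was at -0.076 in TPA and -0.11 in DMSO in the authors' deposited tables (unadjusted p = 0.747 and 0.668). The list of CD69 partners had medians of 0.021 over 7 genes in TPA and -0.052 over 4 in DMSO, computed from the authors' deposited tables, with 0 called and 0 at an unadjusted p under 0.05. KLF2, a transcription factor that drives S1PR1, had a value of 0.72 in TPA in the authors' deposited table (unadjusted p = 0.0777).

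Transcription regulators that act on these receptor genes in T cells had 0 of 18 called in TPA and 1 of 13 in DMSO in the authors' deposited tables, with 5 and 1 at an unadjusted p under 0.05. Over all genes with an adjusted p, 0.113% were called in TPA and 0.108% in DMSO, with 3.99% and 3.04% at an unadjusted p under 0.05. The list was chosen with earlier results of these data known, so its counts cannot be read as a result about regulators. The called gene was NFATC2, the calcineurin-controlled factor NFAT1. Computed from the authors' deposited tables, NFATC2 was at 79.6% of the NTC level in TPA (unadjusted p = 0.0138, adjusted p = 0.938). In DMSO it was at 63.8% (unadjusted p = 1.95e-06, adjusted p = 0.00422). The knockdown effect on NFATC2 differed between TPA and DMSO at an unadjusted p of 0.0933, which did not pass over all genes (adjusted p = 0.999958). EOMES, a T-box factor of memory and exhausted T cells, was at -0.76 in TPA and -0.36 in DMSO in the authors' deposited tables (unadjusted p = 0.000455 and 0.122). The AP-1 family member BATF was at -0.35 in TPA and -0.13 in DMSO in the authors' deposited tables (unadjusted p = 0.0211 and 0.417). NR4A3, an orphan nuclear receptor induced by antigen receptor signals, was at 0.67 in TPA and 0.081 in DMSO in the authors' deposited tables (unadjusted p = 0.0204 and 0.819). MAF, a factor of follicular and IL-10-producing T cells, had a value of 0.87 in TPA in the authors' deposited table (unadjusted p = 0.0497). TOX, a factor of exhausted T cells that is known from cutaneous T cell lymphoma, was at 0.062 in TPA and 0.15 in DMSO in the authors' deposited tables (unadjusted p = 0.723 and 0.412).

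**Figure D3:**
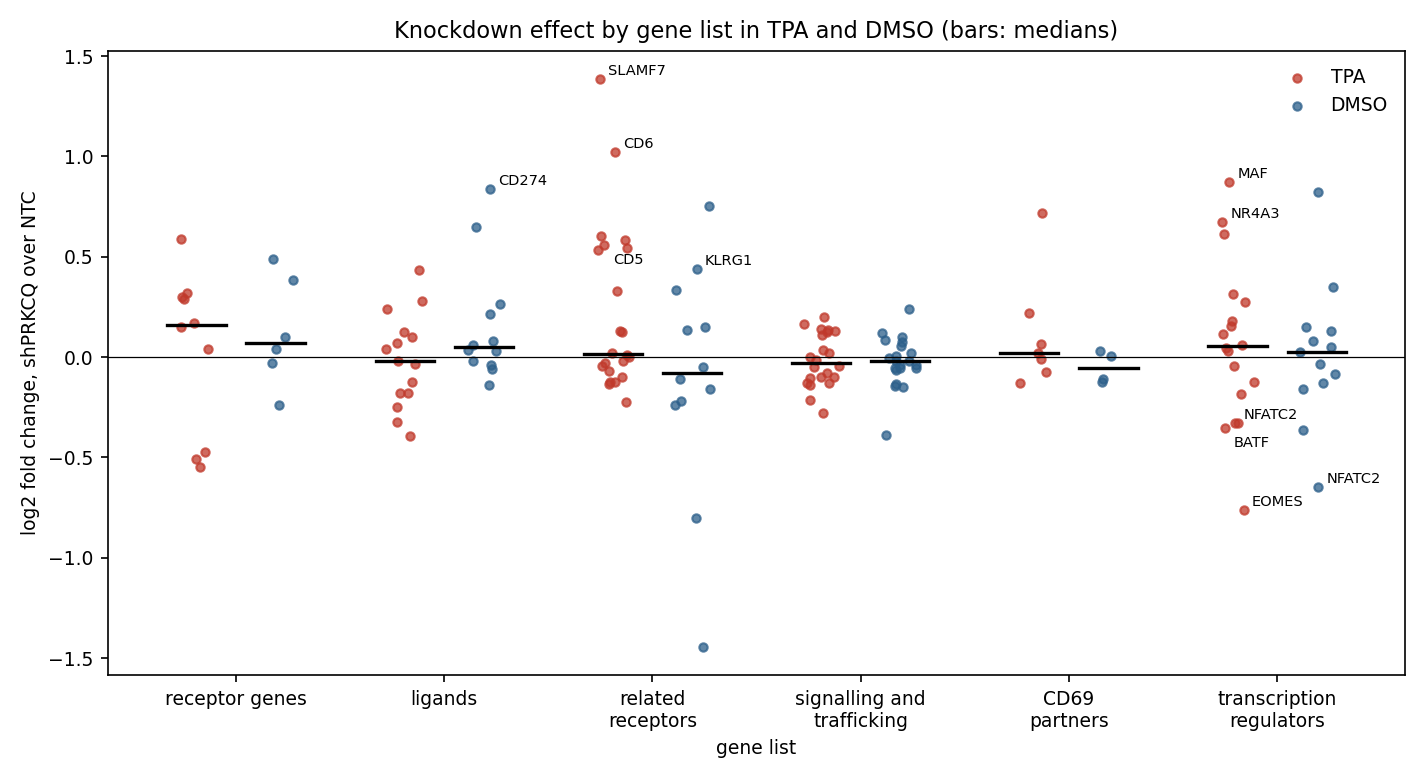
Log2 fold change of shPRKCQ over NTC (y axis) for the receptor genes and 5 lists of partner genes (x axis) in TPA (red) and DMSO (blue), from the authors' deposited tables; each point is a gene with a p, bars are medians, and genes with an unadjusted p under 0.05 are named. The 10 receptor genes span -0.55 to 0.59 in TPA, and the related receptors, a longer list, span -0.23 to 1.39.

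Marker genes were looked up to check the label of the lines as T cells, although tables of fold changes hold no levels. Of 10 T cell markers, all had a p in TPA, with a median log2 fold change of 0.16 and 9 positive, and 6 had one in DMSO, with a median of 0.068 and 3 positive, computed from the authors' deposited tables; 0 passed. The T cell markers thus had about the median of the 10 receptors in both treatments, and their part in the receptor values was not tested. Of 20 markers of B cells, NK cells, myeloid cells and epithelial or stromal cells, 19 had a p in TPA and 3 in DMSO, with 0 called. The 3 in DMSO were CD79A, ITGAM and COL1A1, while the T cell markers CD3E, CD2, CD4 and LCK had no p there. A p is not a level, so the lookup cannot settle the label. The unadjusted p was under 0.05 for CD79B, at -1.10, and KRT5, at 0.77, both in TPA and both values from the authors' deposited table. Over all genes with an adjusted p in TPA that share was 3.99%.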

How the data were processed

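RNA sequencing of 24 libraries was used through 2 tables that the authors deposited, each comparing 6 shPRKCQ with 6 NTC libraries. Every gene has, per the file headers, a deposited log2 fold change, its p-value and the adjusted value of that p. Named by the submitters' processing notes, with no role stated, are the build GRCh38, DESeq2 1.18.1, RSEM 1.3.0 and STAR 2.5.3a. For the model formula, filters, shrinkage and molecular identifiers, the procedure was not given in the sources used here. Gene identifiers of both tables all matched GENCODE release 29, which gave coordinates on GRCh38.

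Calls use the authors' adjusted p under 0.05. From each log2 fold change and p, a z-value, an implied standard error and a 95% interval were computed. If the authors shrank the fold changes, these intervals are approximate. Effects in TPA and DMSO were compared by the difference over the combined standard errors, normal and two-sided, with Benjamini-Hochberg adjustment over 13007 genes. This step was run on simulated data drawn with the same implied standard errors. That checks the calculation and not whether those errors hold here. In the deposited values the robust SD of the z of the difference was 0.579. This is narrower than the standard normal that the test assumes, and the reason was not tested. No value per library was used, so depth is unknown and no count test was run. The labels call the replicates independent.

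The 10 genes and all lists were chosen with earlier results of these data known. Named besides the 10 were partner genes with an unadjusted p under 0.05, ligands, and the nearest protein-coding neighbours with a p; some partners (LRBA, PTPN6, PTPN11, S1PR1, KLF2, TOX, CD38, CRTAM), CD28 and 2 other-cell markers were added after their values were seen. Promoter windows come from RefSeq, GRCh38.p14. Software was pandas 2.3.3, scipy 1.17.1 and numpy 2.4.6 under Python 3.11.15.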

Additional observations from a re-analysis of the deposited data

How the results depend on the processing

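No paired analysis was possible because values per library were not used here; leaving out replicates, other normalizations, filters on counts and pseudocounts were not run for the same reason, and what depth limits could not be assessed. Of 71 recomputed adjusted p-values for single receptors, 70 left the receptor on its side of the threshold; changes of threshold and the minimum fold change keep the authors' p and are not among them. The exception was HAVCR2 in TPA (adjusted p = 0.0136), after p-values were rescaled by the robust SD of z over every gene with a p, which made 1 receptor called. That SD, 0.505, includes the 2910 genes at 1 shared value, and the setting called 2194 genes, 15 of them partner genes where 0 were called before, with CD6, CD5, NFATC2, NR4A3, BATF and MAF (adjusted p = 8.0e-07, 0.00021, 0.00012, 0.00037, 0.00041 and 0.0041) beside SLAMF7 and EOMES. With the SD over genes with an adjusted p, 0.840, an alternative chosen after seeing the data, HAVCR2 had an adjusted p of 0.609 and 113 genes were called in TPA; both kinds of rescaling called 109 in DMSO. Of partner genes, SLAMF7 and EOMES then passed in TPA (adjusted p = 0.0036 and 0.0113). A threshold of 0.01 gave 10 genes in TPA and 8 in DMSO, a threshold of 0.1 gave 39 in TPA, with SLAMF7, and a minimum absolute log2 fold change of 1 gave 14 in TPA and 3 in DMSO, without NFATC2. Adjusting over genes of both tables gave 8 in TPA. The test of the difference gave 0 receptors in both alternatives, with adjusted p from 0.878 upward.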

Other observations

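CD6 and CD5 are neighbours on chromosome 11, 82.0 kb apart, and were chosen for mention together after their values were seen; in TPA the authors' deposited table has them at 203% and 147% of the NTC level, and neither passed over all genes (adjusted p = 0.441 and 0.978).

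CD28 is 1 of 18 genes that the DMSO table lists with a fold change but no p, and all 18 also lack a p in the TPA table. Another of them is ZBED2, a zinc finger gene that lies within CD96 on the opposite strand, at 0.12 in TPA and -0.57 in DMSO in the authors' deposited tables. All 13007 genes with a p in DMSO have an adjusted p in TPA, while 6410 further genes have one in TPA only, among them PDCD1, LAG3 and HAVCR2.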
